A study of Homo sapiens with 59 samples.

Results

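The genes described here encode the proteins of the cytosolic ribosome. They were taken by symbol, as every RPL or RPS gene with a plain number or a number followed by A, together with RPS4X, RPSA, RPLP0, RPLP1 and RPLP2, and each had to reach a mean of at least 10 normalised counts in all 7 deposited tables. All 77 symbols that matched passed this minimum, out of 34622 symbols in the tables. The rule uses symbols and a minimum level, not a response to restriction. They comprise 31 genes of the small subunit, 43 of the large subunit and 3 of its stalk.

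The data are bulk RNA-seq of Jurkat cells, an established line of human leukaemic T cells, in which a single essential amino acid of the medium was lowered and RNA was taken at day 3. Restricted groups of 5 libraries carry the label 25% for histidine, methionine, phenylalanine, tryptophan, isoleucine, leucine or valine. Histidine, methionine, phenylalanine and tryptophan each have a control group of 5 libraries, and isoleucine, leucine and valine share 1 branched-chain control group of 4. The amount of the amino acid in the control media is not given by the labels, and no label states that replicates were grown separately, so a p-value here speaks of differences among these libraries, part of which could be technical.

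A ribosome is built from ribosomal RNA and 1 copy of nearly every ribosomal protein, and its mRNAs are among the most abundant of a growing cell. Most of these mRNAs start with a cytosine and a run of pyrimidines, the terminal oligopyrimidine (TOP) motif. Through this motif and the RNA-binding protein LARP1 the mTORC1 kinase, which responds to amino acids, controls their translation and their storage in the cell.

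The start sequences are shown because the TOP motif is the feature these genes are known to share, and because the responses below were set against it. Each run holds 10 bases before and 20 bases from the annotated start, read from RefSeq promoter sequences on GRCh38.p14, and capitals mark the TOP motif, counted as a C at the start and at least 4 more pyrimidines. Where a gene has several annotated starts, the one with the longest run is shown.
RPL7A: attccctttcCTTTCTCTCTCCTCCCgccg
RPL39: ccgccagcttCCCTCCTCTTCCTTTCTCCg
RPLP2: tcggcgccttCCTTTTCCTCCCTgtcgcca
RPL11: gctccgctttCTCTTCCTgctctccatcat
RPS24: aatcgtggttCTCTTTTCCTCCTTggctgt
RPS6: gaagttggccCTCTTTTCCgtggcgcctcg
RPSA: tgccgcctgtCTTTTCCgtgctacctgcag
RPL3: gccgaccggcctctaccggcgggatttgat
RPS15: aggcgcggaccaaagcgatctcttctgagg
RPS26: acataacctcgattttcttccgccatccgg
RPS4X: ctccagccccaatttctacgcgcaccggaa
The first 7 have the motif at an annotated start and the last 4 do not. They lie at RPL7A chr9:133348208-133348237 (plus strand), RPL39 chrX:119791611-119791640 (minus strand), RPLP2 chr11:809957-809986 (plus strand), RPL11 chr1:23691796-23691825 (plus strand), RPS24 chr10:78033853-78033882 (plus strand), RPS6 chr9:19380217-19380246 (minus strand), RPSA chr3:39406710-39406739 (plus strand), RPL3 chr22:39319604-39319633 (minus strand), RPS15 chr19:1438386-1438415 (plus strand), RPS26 chr12:56041908-56041937 (plus strand) and RPS4X chrX:72277229-72277258 (minus strand). Of the 77 genes, 62 were matched in the RefSeq table, and 46 of those (74.2%) held the motif, against 1404 of 27305 symbols in the same table (5.14%). A gene counted once if any of its annotated starts held the motif, here and for the promoter motifs. Runs were 5 to 19 bases long, with a median of 8 and the longest in RPL39. A pyrimidine run that begins a few bases after the annotated start, as in RPS26, was not counted, so the absence of the motif describes the annotation and not the mRNA.

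In the promoter window of 250 bases before to 50 bases after the start, on either strand, CCGGAAG was found in 35.5% of the matched genes against 12.2% of all symbols. GCCATCTT was found in 9.68% against 3.52%, GGGCGG in 58.1% against 48.3% and TATAAA in 8.06% against 14.0%, and matches were allowed to overlap one another. Coding sequences ran from 75 bases in RPL41 to 1281 in RPL4, with a median of 471, and 28 of the 77 genes carry at least 1 small nucleolar RNA gene within their bounds.

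The total per library lay between 14.9 and 20.5 M normalised counts (M, 10 to the power 6), and since the 7 tables carry separate scalings, levels are compared within a table. The T cell genes LCK and CD3E were read in every library, and the B cell gene MS4A1 and the myeloid gene CSF1R were at 0 in all of them. Of the T cell genes looked at, CD28 was the lowest, with 8.58 to 288 normalised counts. Not all markers of other cell types were low: the B cell gene CD79A ran from 202 to 817 normalised counts, the collagen gene COL1A1 from 134 to 4358 and the keratin gene KRT18 from 39.5 to 526, and their part in the results was not tested. In the mean of the 77 mRNAs, 4 libraries stood more than 0.5 log2 units above the median of the rest of their group. These were phenylalanine restricted 2 (0.95 above), phenylalanine control 1 (0.71), branched-chain control 1 (1.10 to 1.12 in its 3 tables) and valine restricted 2 (0.59). In phenylalanine restricted 2 and in branched-chain control 1 all 77 mRNAs were the highest of their group. Results that rest on these libraries are given with and without them. They were picked by the level of the same 77 mRNAs, so leaving them out narrows the spread of these mRNAs within groups. A higher count of calls without them can follow from that alone.

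**Figure D1:**
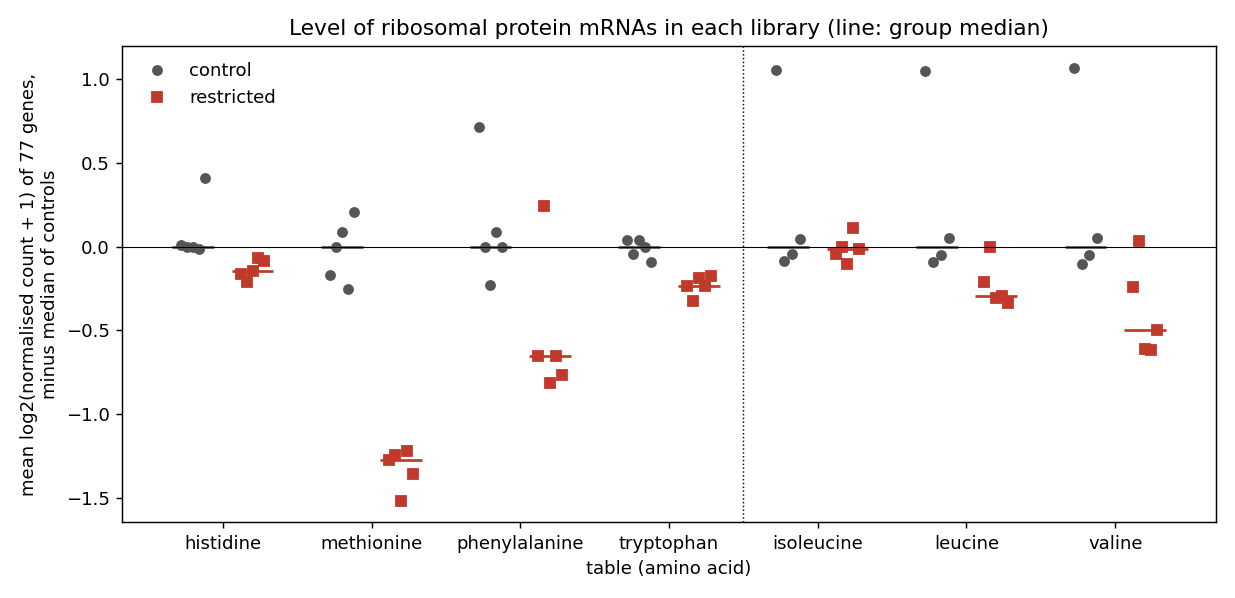
Mean log2(normalised count + 1) of the 77 ribosomal protein mRNAs in each library, minus the median of the controls of its table, with grey circles for controls, red squares for restricted libraries and a line at each group median. All 5 methionine restricted libraries lie 1.22 to 1.52 log2 units below the control median, and branched-chain control 1 lies 1.05 to 1.07 above it.

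Methionine restriction lowered nearly the whole set. Of 77 mRNAs, 76 fell and 0 rose at an adjusted p below 0.05 (limma, adjusted over all genes of the table), against 25.4% of all 16889 genes tested that fell and 27.8% that rose. The median log2 ratio of restricted over control was -1.27, against 0.019 over all genes, and 57 of the 77 were at or below -1. As a share of all normalised counts, the 77 mRNAs made up 3.05% to 3.62% of the restricted libraries and 6.72% to 8.35% of the controls. In bulk RNA, fewer cells that express a gene and less of its mRNA per cell cannot be told apart, and a lower share can also follow from more of other mRNAs.

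RPL3, a protein that reaches to the peptidyl transferase centre of the large subunit (chromosome 22, 39312882 to 39320389, GRCh38), stood at 8152, 9627, 8249, 9740.2 and 8536 in the restricted libraries and 48939, 57014, 56848, 51732 and 59829 in the controls. The groups did not overlap, and every control was at least 5 times the highest restricted library. The fall was 6.19-fold (log2 ratio -2.63, standard error 0.078, adjusted p = 1.27e-11). RPL7 (log2 ratio -2.46, standard error 0.12, adjusted p = 2.03e-09), RPL12, which lies at the base of the stalk (log2 ratio -2.30, standard error 0.10, adjusted p = 5.58e-10), and RPL17, which lines the exit tunnel (log2 ratio -2.14, standard error 0.12, adjusted p = 5.37e-09), followed it. RPL13A (-2.10) and RPL10A (-2.07) of the large subunit also fell by more than 2 log2 units, to 13809 ± 1016 against 59493 ± 7151 and to 3235 ± 221 against 13669.7 ± 1524 normalised counts (SD, n = 5 and 5).

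On the small subunit all genes except RPSA fell, with a median of -1.17 against -1.32 for the large subunit. RPS6, the main substrate of the S6 kinases downstream of mTORC1, stood at 14392, 14074, 12146, 13559 and 15883 in the restricted libraries and 36145, 30353, 42083, 28342 and 37905 in the controls. All of its restricted libraries were below all of its controls (log2 ratio -1.31, standard error 0.11, adjusted p = 2.05e-07). RPS4X fell to 4219 ± 347 against 15019 ± 2484, RPS3, which sits where mRNA enters the subunit, to 13926 ± 2166 against 43734 ± 5655, and RPS27A, made as a fusion with ubiquitin, to 5629 ± 521 against 9815 ± 2258 normalised counts. RPL5 and RPL11, which travel with the 5S ribosomal RNA and can bind the p53 regulator MDM2, changed by -1.84 and -1.63.

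The stalk recruits elongation factors and is made of RPLP0 and several copies of RPLP1 and RPLP2. Its 3 mRNAs fell less than the median of the set, by 0.82 for RPLP0, 0.69 for RPLP1 and 1.14 for RPLP2 on the log2 scale. The smallest called fall, noted after its value was seen, was that of RPS12 (log2 ratio -0.32, standard error 0.13, adjusted p = 0.0446), whose libraries overlapped: 10285, 9672, 8844, 9470.5 and 11755 in the restricted libraries and 10556, 12082, 16292, 9869 and 14695 in the controls. With each library left out in turn, 75 or 76 of the mRNAs were called lower.

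Other mRNAs of translation fell with them. Of 19 translation genes known for TOP mRNAs, 18 fell and 0 rose, with a median of -1.35. The elongation factors EEF1A1 and EEF2 reached 79532 ± 2575 against 250063 ± 37858 and 37779 ± 4321 against 93832 ± 11386 normalised counts, and the initiation factor subunits EIF3E, EIF3H and EIF4B changed by -2.37, -1.58 and -1.40. Of 10 measured ribosomal proteins and paralogues outside the symbol rule 5 fell and 1 rose, with a median of -0.64. RACK1 (-1.42) and FAU, made as a fusion with a ubiquitin-like protein (-1.24), fell and RPL7L1 rose (0.77). Of 36 ribosome assembly genes, in contrast, 23 rose and 2 fell, with a median of 0.34, among them PES1 (1.12), RRN3, a factor of RNA polymerase I (1.37), and PPAN (1.06). The 17 genes of mTORC1 and its TOP pathway were divided, with 6 higher and 5 lower: LARP4 (0.75) and LARP1 (0.64) rose and MYC, a known activator of ribosome production, fell (-0.94).

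Of 78 nuclear genes of the respiratory chain 33 fell and 11 rose under methionine restriction, with a median of -0.15, led by UQCRC1 (-1.39). Of 75 mitochondrial ribosomal proteins 39 rose and 7 fell, and other genes with coding sequences of at most 450 bases had a median of 0.084. Of those 642 short coding genes 27.4% fell, close to the share of all genes.

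Histidine restriction lowered part of the set by a smaller amount. Of 77 mRNAs 30 fell and 2 rose in limma, where 12.3% of all 17740 genes fell and 15.6% rose. The median log2 ratio was -0.16, against -0.0061 over all genes, and the middle 50% of the members lay between -0.45 and -0.018. RPL7A, a large subunit protein whose gene holds 4 small nucleolar RNA genes (chromosome 9, 133348214 to 133351426), stood at 9047, 8863, 9288, 10749 and 10311 in the restricted libraries and 19209, 21511, 21132, 22905 and 26716 in the controls. Every control was above every restricted library (log2 ratio -1.20, standard error 0.088, adjusted p = 6.54e-07). RPS15, on the head of the small subunit, stood at 5366, 4978, 5729, 6000.3 and 5612 in the restricted libraries and 9269, 9876, 10298, 9945 and 12257 in the controls, again with no overlap (log2 ratio -0.90, standard error 0.079, adjusted p = 3.19e-06). RPL17 (-0.79) and RPL3 (-0.78) were the next largest falls.

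RPL14, a surface protein of the large subunit (chromosome 3, 40457292 to 40468587), rose in the same cells, with 3124, 3046, 3486, 3913 and 3606 in the restricted libraries and 2185, 2530.1, 2906, 2694 and 2592 in the controls. Every restricted library was above every control (log2 ratio 0.41, standard error 0.088, adjusted p = 0.00336). The other called rise was that of RPSA (0.66), which is uncertain for the reasons given below. Genes that were not called included RPS6 (0.16, adjusted p = 0.182), RPL5 (-0.10, 0.342) and RPLP0 (-0.14, 0.26), while RPL11 (-0.59), RPS26 (-0.61), RPLP2 (-0.35) and RPS3 (-0.26) fell. Histidine control 5 was high in these mRNAs, with 72 of the 77 at their highest in it, and without it the median was -0.097, the count of rises went from 2 to 11 and the count of falls stayed between 26 and 30 for every library left out. The share of all genes that rose without control 5 is not given. With all libraries it was 15.6%.

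Among the translation genes known for TOP mRNAs 9 of 19 fell and 0 rose, with HNRNPA1 (-1.37), EIF4A2 (-0.75) and EIF4B (-0.58) at the smallest adjusted p. Of the 17 genes of mTORC1 and its TOP pathway 5 rose and 1, MYC, fell (-0.64). The translation repressor EIF4EBP1 (0.45) and the mTORC1 inhibitor AKT1S1 (0.53) were among the rises. The 36 assembly genes were divided, with 4 higher and 6 lower.

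Tryptophan restriction moved the set in both directions. Of 77 mRNAs 35 fell and 6 rose in limma, against 27.7% of all 16630 genes that fell and 23.6% that rose. The median log2 ratio was -0.13, against 0.027 over all genes, and this direction depended on the scaling. Normalised counts summed to 15.3 to 16.0 M in the restricted libraries and 18.2 to 18.8 M in the controls, and with every library brought to the same total 19 mRNAs fell, 30 rose and the median was 0.11. Equal totals moved the median of all genes by 0.245 in this table, and the share of all called genes that were higher from 45.9% to 70.9%. As a share of all counts the set made up 4.89% to 5.24% of the restricted libraries and 4.72% to 5.14% of the controls.

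The largest falls held under either scaling. RPL7A stood at 6946, 6978, 8334, 6711 and 7447 in the restricted libraries and 19954, 17171, 18444, 17915 and 16922 in the controls, so that no control came within 2 times the highest restricted library (log2 ratio -1.31, standard error 0.067, adjusted p = 1.66e-09). RPS15 fell to 4673 ± 283 against 10707 ± 846 (log2 ratio -1.19, standard error 0.063, adjusted p = 2.47e-09) and RPL11 to 4594 ± 368 against 9571 ± 445 normalised counts (log2 ratio -1.06, standard error 0.062, adjusted p = 5.84e-09). RPL23A, at the exit of the tunnel where the nascent chain leaves, stood at 2599, 1323, 1729, 2584 and 2566 in the restricted libraries and 5264, 5461, 5084, 5656 and 5045 in the controls (log2 ratio -1.34, standard error 0.16, adjusted p = 6.68e-06). Its pseudogene RPL23AP42 held reads as well and fell alongside, to 1432 ± 605 against 3133 ± 830.3 (log2 ratio -1.19, adjusted p = 0.00104), and the sum of RPL23A with its copies was 3719 ± 329.7 against 8552 ± 841 (log2 ratio -1.20, adjusted p = 1.49e-08).

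RPS20 of the small subunit was the other called rise without overlap besides RPSA, with 11574, 11875, 12332, 11275 and 11228 in the restricted libraries and 11052, 10099.7, 10988, 10199.5 and 9849.5 in the controls. The groups did not overlap, but they lay close together (log2 ratio 0.16, standard error 0.052, adjusted p = 0.0183), and without restricted library 3 the adjusted p was 0.0515. The other called rises were RPS19 (0.33), RPS12 (0.26), RPL13A (0.19) and RPL37A (0.16), each with overlapping libraries. Of these, RPL13A was chosen by role and the others were listed after their values were seen. Falls of RPL5 (-0.29), RPLP2 (-0.29) and RPS3 (-0.28) were no longer called at equal totals, where they were at -0.049, -0.042 and -0.034.

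The assembly genes fell almost throughout. Of 36 such genes 35 fell and 0 rose, with a median of -0.96 (32 fell and 0 rose at equal totals), led by NOB1 (-1.49), UTP4 (-1.52) and BYSL (-1.60). MYC reached 3639 ± 563 against 9088 ± 1118 normalised counts. Of 75 mitochondrial ribosomal proteins 63 fell, or 51 at equal totals. Of 19 translation genes known for TOP mRNAs 9 fell and 2 rose, and at equal totals 7 fell and 6 rose, so their direction depended on the scaling as well. EEF1A1, at 146318 ± 5642 against 143224 ± 4985 normalised counts, did not pass the test (adjusted p = 0.646).

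Phenylalanine restriction lowered part of the set, with a wide spread between libraries. Of 77 mRNAs 32 fell and 0 rose in limma, where 6.09% of all 17021 genes fell and 4.11% rose, and the median log2 ratio was -0.62, against 0.034 over all genes. Without restricted library 2 and control library 1, the libraries high in these mRNAs, 72 fell and 0 rose, against 14.2% of all genes that fell, with a median of -0.67. The median thus moved little, and the higher count can follow from the narrower spread within groups. Leaving out restricted library 2 alone gave 58 falls, and the counts with each library left out ranged from 17 to 58. With all libraries 18 were called without the trend and 19 with the replicate block. The shares of all genes called in the fits with single libraries left out, without the trend and with the block are not given.

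RPS26, which lies near the site where mRNA leaves the small subunit (chromosome 12, 56041351 to 56044697), stood at 2757, 4407, 2459, 2887 and 2632 in the restricted libraries and 14426, 8428, 6837, 9063 and 7826 in the controls. Restricted library 2 and control library 1 were the highest of their groups, and still no restricted library reached the lowest control (log2 ratio -1.60, standard error 0.20, adjusted p = 0.000446). Without those libraries the log2 ratio was -1.58. RPS4X stood at 7335, 10845, 6682, 7806 and 6808 in the restricted libraries and 21920.2, 16721, 14878, 18884 and 17211 in the controls (log2 ratio -1.19, standard error 0.15, adjusted p = 0.000357), with -1.24 without them. RPS15A (-1.25), RPL18 (-1.09), RPL7A (-1.09), RPS3 (-1.03), RPL3 (-0.96) and RPL5 (-0.88) fell too, and each kept its call with any library left out.

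RPLP0 (-0.90, adjusted p = 0.0329) and RPLP2 (-0.96, adjusted p = 0.0276) were called with all libraries, RPLP1 was not (-0.61, adjusted p = 0.101), and all 3 were called without the 2 high libraries. RPLP0 was no longer called with 7 of the 10 libraries left out in turn (adjusted p up to 0.0824) and RPLP2 with 5 of 10 (adjusted p up to 0.0708), among them restricted libraries 1, 3, 4 and 5 and control library 4 for either gene. Of the translation genes known for TOP mRNAs 15 of 19 fell, among them EEF2 (44954 ± 2612 against 114271 ± 18959.6), EIF3E (-0.97) and NAP1L1 (-1.47), and RACK1 fell by 1.25 on the log2 scale. RPL22L1, the paralogue of RPL22, changed by -1.92, while RPL22 itself was at -0.34 and was not called (adjusted p = 0.175). Without the 2 high libraries RPL22 was again at -0.34 and was called lower (adjusted p = 0.00116). The assembly genes showed 5 rises and 2 falls among 36.

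Isoleucine, leucine and valine were set against the same 4 controls, so their values are given side by side and not as independent results. Branched-chain control 1 held 12.7% to 12.8% of its counts in these 77 mRNAs and the other 3 controls 7.18% to 7.59%, and the counts and medians below are also given without control 1.

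Under isoleucine restriction limma called 0 of the 77, 1 at an unadjusted p below 0.05, and 0% of all 16623 genes were called. The median of -0.23 became 0.024 without branched-chain control 1, so the data give no stable direction. RPL3 was at 48304, 49141, 45928, 53255 and 48131 in the restricted libraries and 84982, 47315, 47564 and 52262 in the controls, and the restricted libraries spanned the range of the controls other than control 1. RPS19 had the largest difference (-0.55, adjusted p = 0.797), a gene named after its value was seen, and it was at -0.26 without that control.

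Under leucine restriction 14 of the 77 fell and 0 rose, where 4.33% of all 16488 genes fell and 3.41% rose, with a median of -0.47. Without branched-chain control 1 the count was 20, against 4.92% of all genes, and the median was -0.22. With all libraries but no intensity trend in limma, 1 of the 77 was called lower. RPL31, near the exit of the tunnel, stood at 3599, 3631, 3302, 3657 and 3446 in the restricted libraries and 14359, 5172, 6230.4 and 5775 in the controls. The restricted libraries lay within a narrow band below every control, and control 1 was more than 2 times the next control (log2 ratio -1.03, standard error 0.23, adjusted p = 0.0224; -0.70 without control 1). RPL10, which sits beside the P-site transfer RNA (-0.98), RPL11 (-0.92) and RPS15 (-0.90) were the next falls, and each of these 4 lost its call when restricted library 3, 4 or 5 was left out, RPL31 with an adjusted p of up to 0.0593 and RPS15 of up to 0.0969. RPL10, RPL11 and RPS15 were at -0.66, -0.60 and -0.57 without control 1. RPL7A was the 1 named mRNA of 11 that stayed called with any library left out, at 12175 ± 1380.3 against 22616 ± 7424 normalised counts (SD, n = 5 and 4; log2 ratio -0.85, standard error 0.17, adjusted p = 0.0127). RPL4 had a log2 ratio of 0.14 (adjusted p = 0.644).

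Under valine restriction 27 of the 77 fell and 0 rose, where 7.36% of all 16771 genes fell and 5.13% rose, with a median of -0.68. Without branched-chain control 1 the count was 26, against 7.41% of all genes, and the median was -0.40. Without that control and valine restricted 2 the count was 53, against 11.5% of all genes, and the median was -0.51. With all libraries but no trend 13 were called lower, and with the replicate block 59, fits for which the shares of all genes are not given. RPS23, a protein of the decoding centre, stood at 9527, 12770.1, 8371, 8845 and 9216 in the restricted libraries and 39460.1, 17192, 18852 and 19824 in the controls. The highest restricted library, number 2, was below the lowest control (log2 ratio -1.22, standard error 0.22, adjusted p = 0.00418), and the log2 ratio was -0.95 without control 1 and -1.05 without the high libraries. RPS13 (-1.20), RPL24 (-1.16), RPL3 (-0.95), RPL4 (-0.87) and RPS3 (-0.79) fell and kept their calls with any library left out, whereas RPL27A (-1.12) had an adjusted p of 0.0516 without restricted library 3. RPL5, at 37229, 32787, 31370.0, 30832 and 32308 in the restricted libraries and 45187, 30928, 31005 and 33236 in the controls, did not pass the test (-0.077, adjusted p = 0.769). Of the translation genes known for TOP mRNAs 13 of 19 fell and 1 rose, with EEF2 (-1.59), EIF3E (-1.50) and EIF3F (-1.23) at the smallest adjusted p. Among the assembly genes 6 rose, NOP56 among them (1.36), and 1, FBL, fell (-1.32).

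**Figure D2:**
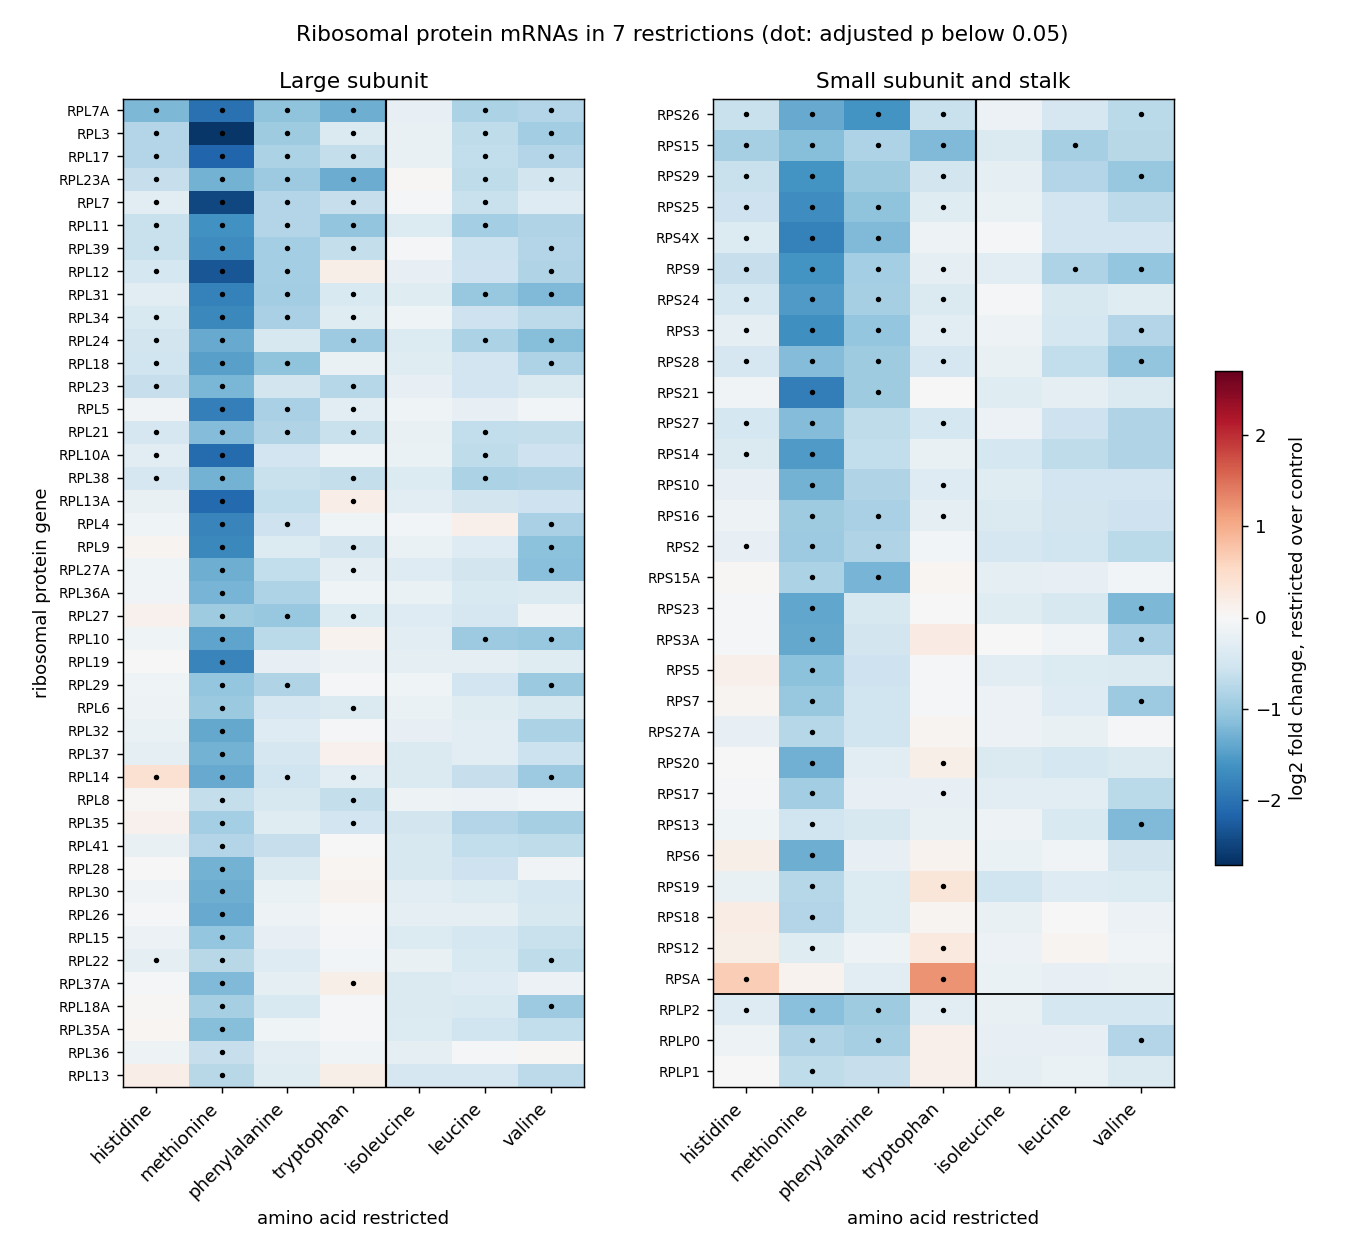
Log2 fold change of 75 of the 77 genes (rows, within subunit ordered by the mean over histidine, methionine, phenylalanine and tryptophan) in each restriction (columns), in blue where lower and red where higher, with a dot where the adjusted p was below 0.05. The vertical line sets apart the 3 comparisons with shared controls. The methionine column carries a dot in 74 of the 75 rows, and RPSA, at the foot of the small subunit, is red for histidine and tryptophan.

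The differences between responses were tested for the 6 pairs of amino acids with controls of their own, as a contrast over 4 groups adjusted over all genes in both tables. The methionine response was lower than the tryptophan response for 73 of the 77 mRNAs (53.6% of all 16094 genes differed in either direction), lower than the histidine response for 74 (34.4%) and lower than the phenylalanine response for 34 (29.4%). Between histidine and tryptophan 16 differed (43.3%), 6 lower and 10 higher under histidine, and that share of the 77 was below the share of all genes. Histidine and phenylalanine differed for 8 (9.66%) and phenylalanine and tryptophan for 18 (32.6%), in each case lower under phenylalanine. The share of the 77 was near that of all genes for the former pair and below it for the latter. Without the libraries high in these mRNAs the counts that involve phenylalanine were 46 against histidine, 52 against methionine and 52 against tryptophan, where 19.5%, 38.4% and 42.4% of all genes differed. Without histidine control 5 the count between histidine and tryptophan was 26, and the share of all genes in that fit is not given.

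RPL3 fell more under methionine than under histidine (histidine minus methionine 1.85, standard error 0.11, adjusted p = 4.3e-11) and more under histidine than under tryptophan (-0.39, standard error 0.092, adjusted p = 0.00152). RPL14 separated histidine from each of the other restrictions, with differences of 1.78, standard error 0.15, adjusted p = 9.98e-09 from methionine, 0.95, standard error 0.17, adjusted p = 0.000899 from phenylalanine and 0.71, standard error 0.13, adjusted p = 0.000105 from tryptophan. For RPS26 the phenylalanine response was lower than those to histidine (histidine minus phenylalanine 0.99, standard error 0.25, adjusted p = 0.0147) and tryptophan (phenylalanine minus tryptophan -1.01, standard error 0.23, adjusted p = 0.00159). RPS15 fell by a like amount under methionine and tryptophan, with a difference of 0.055, standard error 0.11, adjusted p = 0.69, a test that does not show the responses to be equal.

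**Figure D3:**
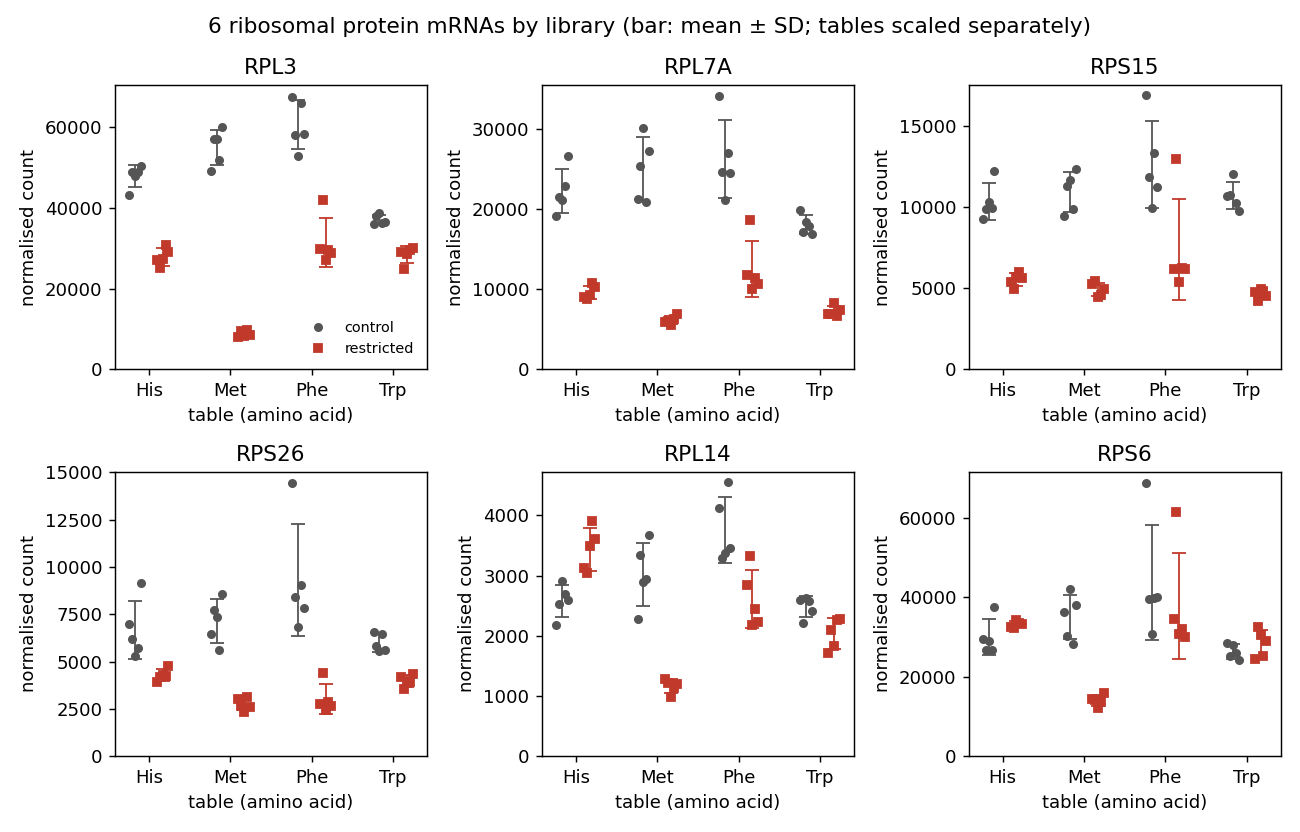
Normalised counts of RPL3, RPL7A, RPS15, RPS26, RPL14 and RPS6 in every control (grey) and restricted (red) library of the histidine, methionine, phenylalanine and tryptophan tables, with bars for mean ± SD. RPL7A and RPL3 are lower in every restricted library of the 4 tables, RPL14 is higher under histidine, and RPS6 separates under methionine.

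Some members fell in every one of these 4 comparisons. In all, 18 of 77 (23.4%) were called lower in all 4, among them RPL3, RPL7A, RPL11, RPL17, RPLP2, RPS3, RPS15 and RPS26, against 229 of 15774 genes tested in all 4 tables (1.45%). These are the calls with all libraries, and several of them under phenylalanine were lost with 1 library left out. A further 29 (37.7%, against 32.9% of all genes) were called lower in 1 comparison, and 1, RPSA, in none. All 30 falls under histidine, all 32 under phenylalanine and all 35 under tryptophan were among the 76 under methionine, an overlap that a count of 76 of 77 all but fixes. Histidine and tryptophan shared 23, which is 76.7% of the former and 65.7% of the latter. The same overlap over all genes was not counted, and 27.7% of all genes fell under tryptophan. At equal totals the tryptophan falls numbered 19 and not 35. RPL3, RPL7A, RPL17, RPL23A and RPS9 were called lower in 6 of the 7 comparisons. The share of all genes called that often was not counted, and leucine and valine share their controls. RPL7A kept its leucine and valine calls with any library left out, whereas RPL17 and RPL23A lost theirs in at least 1 such fit. Under tryptophan RPS9 was at 0.0020 with equal totals.

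The members were also split by TOP motif, by host status and by coding length, as a description with no test of the difference. Under methionine the 46 genes with an annotated TOP start had a median of -1.28 and the 16 without -1.50, and under histidine -0.17 and -0.24. Under phenylalanine the medians were -0.66 and -0.70, under isoleucine -0.27 and -0.20, under leucine -0.50 and -0.47 and under valine -0.70 and -0.77. The widest gap was under tryptophan, with -0.12 and -0.38, where 19 of the 46 fell and 5 rose, and 9 of the 16 fell and 0 rose. RPL7A, with a run of 16 pyrimidines, was among the falls shown above. So were RPL3, RPS15 and RPS26, whose runs of 4, 1 and 0 at the annotated start are too short for the motif. The 28 hosts of small nucleolar RNAs and the 49 other members had medians of -1.31 and -1.25 under methionine and -0.087 and -0.18 under tryptophan. The 39 shorter and 38 longer coding sequences had -1.19 and -1.38 under methionine and -0.20 and -0.13 under tryptophan.

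RPSA is the small subunit protein also known as the laminin receptor precursor (chromosome 3, 39406689 to 39412542). Its log2 ratio was positive under histidine, tryptophan and methionine, where most members were negative, and its value is uncertain. Under phenylalanine, isoleucine and valine it was negative, as for every small subunit gene. Under tryptophan it stood at 558, 722, 636, 420.1 and 565 in the restricted libraries and 242, 307, 255, 337 and 138 in the controls (log2 ratio 1.22, standard error 0.21, adjusted p = 0.000205), under histidine at 862, 610.4, 830.4, 659 and 858 in the restricted libraries and 502, 464, 665, 376 and 424 in the controls (log2 ratio 0.66, standard error 0.15, adjusted p = 0.00441) and under methionine at 493, 411, 403, 577 and 449 in the restricted libraries and 369, 481, 411, 388 and 532 in the controls (log2 ratio 0.10, standard error 0.13, adjusted p = 0.547). The groups overlapped for histidine and methionine and not for tryptophan. A gene named RPSA2 carried most of the counts of the pair: 79.3% to 84.2% of the sum of RPSA and its named copies lay in the copies. RPSA2 was at 1592 ± 174 against 1628 ± 173 (log2 ratio -0.033, adjusted p = 0.782) under tryptophan, at 2383 ± 147 against 2464 ± 101 (log2 ratio -0.049, adjusted p = 0.578) under histidine and at 1475 ± 232 against 3225 ± 277 (log2 ratio -1.14, adjusted p = 6.58e-07) under methionine. Under phenylalanine, with all libraries, RPSA2 was at 2419 ± 583 against 3720 ± 448 (log2 ratio -0.64, adjusted p = 0.0171).

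Summed with its copies, RPSA was at 3186 ± 139 against 3041 ± 190.1 (log2 ratio 0.068, adjusted p = 0.43) under histidine, at 2208 ± 132 against 1912 ± 158 (log2 ratio 0.21, adjusted p = 0.0189) under tryptophan and at 1987 ± 275 against 3716 ± 322 (log2 ratio -0.91, adjusted p = 2.53e-06) under methionine. The sum thus fell under methionine with the other members, and 77 of 77 sums fell there. The histidine rise was not called in the sum, and the tryptophan rise was smaller. Over 10% of the summed counts also lay in copies for RPL23A, RPL36A, RPS2 and RPS28 in all 7 tables, and for RPL17 in the methionine table, and values for these genes depend on how reads were divided.

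**Figure D4:**
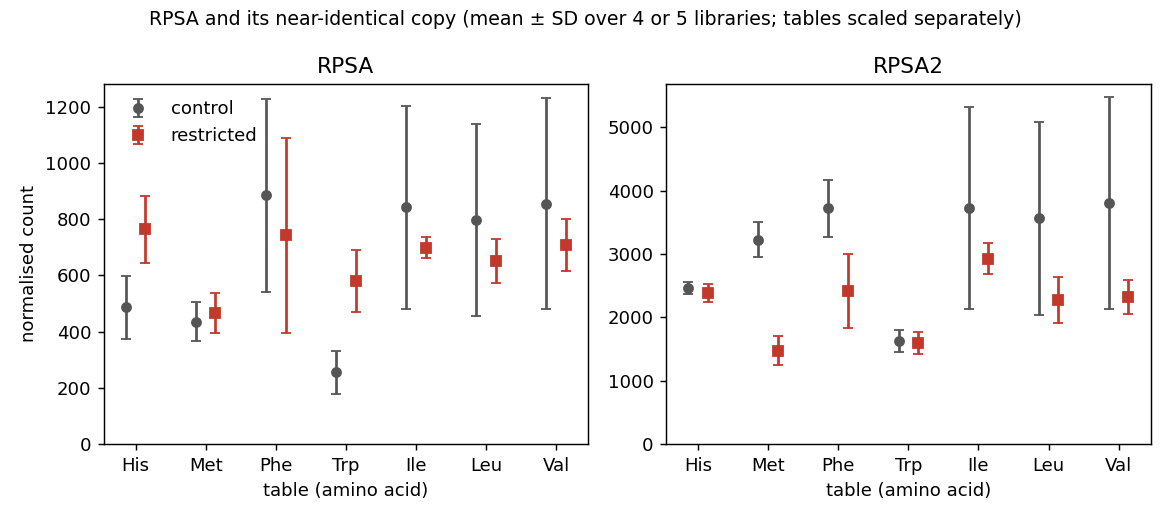
Mean ± SD of the normalised count of RPSA and of RPSA2 in control (grey) and restricted (red) libraries of each table, on axes that start at 0. RPSA is higher under histidine and tryptophan, while RPSA2, at several times the level, is lower under methionine and phenylalanine and about level under histidine and tryptophan.

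The libraries high in ribosomal protein mRNA were high in other short mRNAs too. In branched-chain control 1 the 77 members stood 1.10 log2 units above the median of the rest of the group, other genes with coding sequences of at most 450 bases 0.56 above, mitochondrial ribosomal proteins 0.71 above and nuclear genes of the respiratory chain 0.94 above, in the isoleucine table. Genes with coding sequences of at least 3000 bases were at -0.38. Phenylalanine restricted 2 showed 0.95 for the members, 0.56 for short and -0.41 for long coding sequences, and phenylalanine control 1 0.71, 0.43 and -0.47. Valine restricted 2 showed 0.59, 0.31 and -0.30, and histidine control 5 0.41, 0.18 and -0.26.

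In these libraries the ribosomal protein mRNAs moved together with short mRNAs at large and against long ones. In the methionine comparison, short and long coding sequences had medians of 0.084 and 0.10 beside -1.27 for the members. In the phenylalanine comparison they had 0.059 and 0.044 beside -0.62, and in the leucine comparison -0.11 and 0.16 beside -0.47. In the valine comparison they had 0.13 and 0.0017 beside -0.68. Short coding sequences lay near the members under tryptophan, at -0.11 beside -0.13, with 37.8% and 45.5% lower, and long ones were at -0.0040. Under isoleucine short and long coding sequences had -0.13 and 0.092 beside -0.23, and under histidine -0.011 and 0.068 beside -0.16. The part of RNA length or quality in any comparison was not tested, beyond leaving these libraries out where a comparison held them. The labels give no batch, date or RNA quality for any library.

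**Figure D5:**
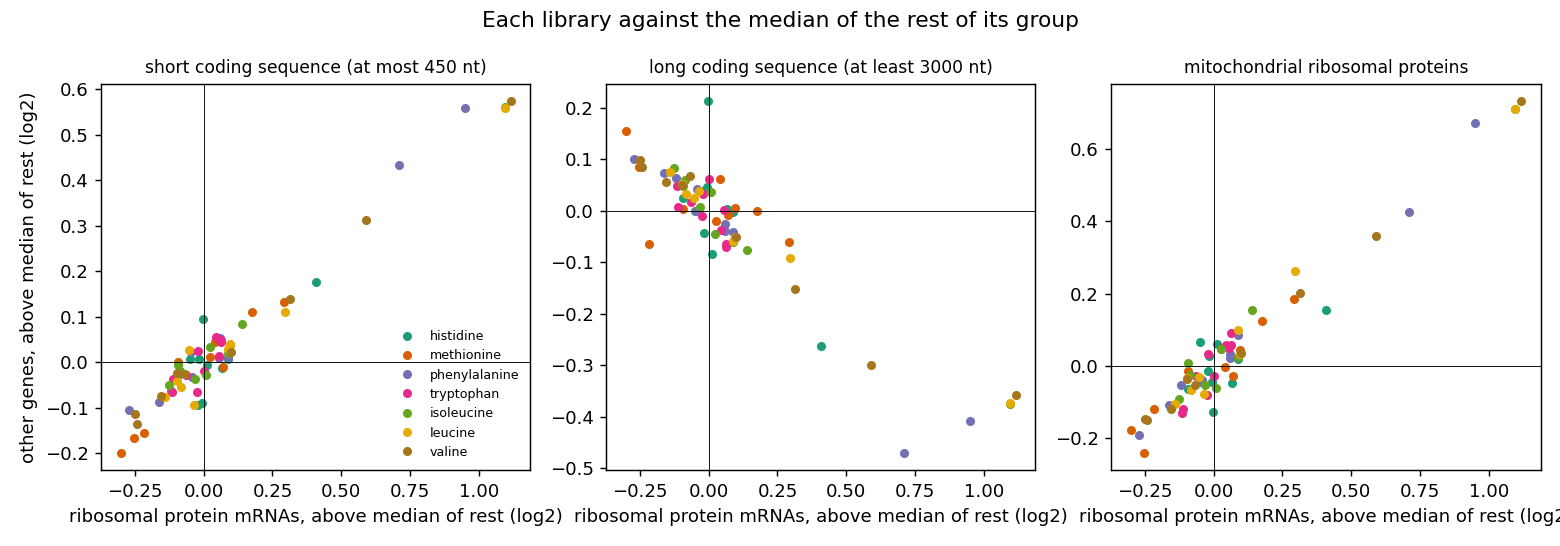
Each library's mean level minus the median of the other libraries of its group, for the 77 ribosomal protein mRNAs (x axis) and for other genes (y axis), both in log2 units: short coding sequences, long coding sequences and mitochondrial ribosomal proteins, with 1 point per library and table and a colour per table. The points to the far right are branched-chain control 1 and phenylalanine restricted 2, which are high in short coding sequences and low in long ones.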

How the data were processed

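RNA of 59 Jurkat libraries, purified on silica columns, was sequenced strand-specifically, per the labels' protocols. As deposited by the authors, there are 7 tables, 1 per amino acid, whose signal is a normalised count per gene. Per the submitters' processing notes the tools were FastQC 0.11.9, kallisto 0.50.1 and DESeq2 1.44.0 with GRCh38, with settings, annotation and use of strand not given in the sources used here. Of the low values 56.1% to 84.7% per library lay within 0.1 of a whole multiple of a common step, too few to recover raw counts, so no count model was used.

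Using limma 3.58.1 (R 4.3.3), log2(normalised count + 1) was tested with an intensity trend, two-sided, restricted against control within a table, over genes with a mean of at least 10. Benjamini-Hochberg adjustment ran over all of these genes, and an adjusted p under 0.05 was called. Fold changes on this scale understate the change of low genes. Differences between responses used 1 limma model over 4 groups. The fit was tested on simulated data. Alternatives covered pseudocounts of 0.25 and 5, other minimum means, scaling (TMM factors computed in R), a replicate block, library weights, no trend and each library left out. Sums with gene copies and leaving out libraries high in these mRNAs were chosen after seeing the data.

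The members, gene lists and tests were chosen with earlier results of these data known. Named members were the 4 largest falls and 3 largest rises without overlap in each comparison, the 4 least and 3 most coherent with the set, and 17 chosen by role. From each other list the 3 genes with the smallest adjusted p were named. Outside this rule, and chosen after values were seen, are RPS12, RPS19 and RPL37A, EEF1A1 and EEF2 (the rule does name EEF2 for valine), the RPL39 start, and genes named to complete a set of calls or copies. Results for some single genes are not reported here. Gene positions are from the GENCODE annotation of GRCh38.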

Additional observations from a re-analysis of the deposited data

Results flagged for a closer look

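Some libraries stood apart from the rest of their group in the mean level of the 77 mRNAs, by Dixon's ratio of the gap to the whole range (critical value 0.71 for 5 libraries, and the tabulated value for 4). The ratio was 0.937 in the histidine controls, for control 5, and 0.846 in the phenylalanine restricted libraries, for restricted 2. In the branched-chain controls it was 0.887, 0.875 and 0.867 in the isoleucine, leucine and valine tables, for control 1 in each, which is 1 library measured in 3 tables. Chance places about 1 in 20 groups past this limit.

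Counted gene by gene, a library stood apart for 64 of the 77 mRNAs in the phenylalanine restricted libraries and for 25 in the phenylalanine controls. The counts were 30 in the histidine controls and 47, 42 and 39 in the branched-chain controls of the isoleucine, leucine and valine tables. They were 4 in the histidine restricted libraries, 3 in the methionine restricted libraries, 3 in the methionine controls, 6 in the tryptophan restricted libraries, 3 in the tryptophan controls, 2 in the isoleucine, 9 in the leucine and 1 in the valine restricted libraries. The 77 mRNAs vary together, so these counts are not independent of one another.

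The responses of 2 amino acids differed by the test of the difference for 74 mRNAs between histidine and methionine (34.4% of all genes). The counts were 73 between methionine and tryptophan (53.6%), 34 between methionine and phenylalanine (29.4%) and 18 between phenylalanine and tryptophan (32.6%). They were 16 between histidine and tryptophan (43.3%) and 8 between histidine and phenylalanine (9.66%). For tryptophan with phenylalanine or with histidine, the share of these mRNAs was below that of all genes. For histidine with phenylalanine it was near that of all genes.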

How the results depend on the processing

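Pseudocounts of 0.25 and 5, no filter, a minimum mean of 100, TMM factors and factors from genes outside the set kept every count of members called, every median and every count of pair differences within its direction and 1.5 times its value. At equal totals the tryptophan counts were 19 lower and 30 higher with a median of 0.11. The named members RPL10A (0.13) and RPS23 (0.24), negative and not called before, were called higher, as were others of the 77. With this scaling 30 mRNAs differed between histidine and tryptophan and 30 between phenylalanine and tryptophan. Equal totals moved the median of all genes by 0.127, 0.118, 0.245 and 0.113 under methionine, phenylalanine, tryptophan and valine, and the share of called genes that were higher from 52.2% to 62.6%, 40.3% to 67.0%, 45.9% to 70.9% and 41.1% to 63.7%. With library weights the counts were 7 higher for histidine, 62 lower for phenylalanine, 10 higher for tryptophan, 31 lower for leucine and 50 lower for valine, and the pair counts were 52 for histidine and phenylalanine, 54 for methionine and phenylalanine and 52 for phenylalanine and tryptophan. Without the trend 18, 1 and 13 mRNAs were lower for phenylalanine, leucine and valine. Without the libraries high in these mRNAs 72 and 53 were lower for phenylalanine and valine, the isoleucine median was 0.024, as it was without branched-chain control 1 alone, and the pair counts with phenylalanine were 46 for histidine, 52 for methionine and 52 for tryptophan. With copies summed 1 mRNA was higher for histidine, and RPSA fell under methionine (-0.91). The cause of these shifts was not tested. Shares of all genes are not given for the counts with library weights, without the trend or with the replicate block. Nor are they given for pair counts at equal totals or for most counts with 1 library left out. Whether those counts moved more than the calls over all genes is therefore not known.

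With each library left out in turn, mRNAs called higher under histidine numbered 2 to 11 (11 without control 5). Those called lower numbered 17 to 58 for phenylalanine (17 without restricted 1, 58 without restricted 2), 2 to 20 for leucine (2 without restricted 3, 20 without branched-chain control 1) and 14 to 39 for valine (14 without restricted 3, 39 without restricted 2). The isoleucine median ranged from -0.35 to 0.024. Pair counts ranged from 8 to 37 for histidine and phenylalanine, 15 to 26 for histidine and tryptophan and 15 to 49 for phenylalanine and tryptophan.

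Libraries of the same number did not deviate together: their correlations across genes ran from -0.19 to 0.19, and in no table were all above 0.1, so the numbers were not taken as pairs. With the replicate block 19 mRNAs were lower for phenylalanine and 59 for valine, a fit that leaves out restricted library 2 in the branched-chain comparisons, which has no control of its number. Raw depth is unknown, so no limit from counting can be given.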
